A study of Mus musculus with 36 samples.

Results

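Replication-dependent histone genes encode the H2A, H2B, H3 and H4 proteins of the nucleosome and the H1 linker histones, and they lie in clusters. The genes described here were chosen by symbol: those beginning with Hist1h to Hist4h, and the newer names of the form H2ac, H2bc, H3c or H4c followed by a number and H1f1 to H1f5. This rule found 64 of 25239 genes in the table of P-body and cytoplasm libraries, the same 64 genes in the table of polysome and total RNA libraries, and 70 genes in the table of Ago2 knockout (KO) libraries, which uses the older names throughout. The 64 genes were 5 H1, 18 H2A, 17 H2B, 12 H3 and 12 H4 genes. Hist1h2al, counted here with the H2A genes, is annotated as a processed pseudogene. Hist1h2aj and Hist3h2bb-ps, found only in the Ago2 KO table, are annotated as pseudogenes too. Of the 70, 56 lie on mouse chromosome 13, 10 on chromosome 3, 3 on chromosome 11 and 1 on chromosome 6.

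Histone supply follows DNA synthesis, so these genes are transcribed mainly in S phase and their mRNAs are degraded when replication stops. Their mRNAs are unusual among animal mRNAs: instead of a poly(A) tail they end shortly after a conserved stem-loop, which is bound by SLBP and cut by a complex that includes the U7 snRNP, and LSM1 and terminal uridyl transferases take part in their decay. Some members, among them H1f2 (Hist1h1c), H2bc4 (Hist1h2bc) and H2bc21 (Hist2h2be), are known to be made as polyadenylated mRNAs too. P-bodies are cytoplasmic condensates of untranslated RNA and protein.

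The study compared RNA of sorted P-bodies with RNA of the cytoplasm in mouse cells, to ask which RNAs are held in P-bodies. Its cytoplasm fraction was the pelleted lysate, after removal of nuclei, from which the P-bodies were then sorted. Aliquots taken before sorting were used, so this fraction still held P-bodies and lacked RNA left in the supernatant. The cells were naive and primed ES cells of a v6.5 line, mouse embryonic fibroblasts (MEFs), day 3 reprogramming MEFs that carried either a control or a Nudt21 hairpin, and ES cells with an Ago2 KO, with 2 libraries for each fraction. The MEFs carried a doxycycline-inducible Oct4, Klf4, Sox2 and Myc cassette, an rtTA transgene and an Oct4-EGFP reporter, and the day 3 cells had the cassette switched on. The hairpin targeted Nudt21, which encodes a part of the CFIm complex that favours distal polyadenylation. All cells used for sorting expressed GFP-LSM14A, a P-body protein, from a lentivirus. The Ago2 KO cells came from single sorted cells of the v6.5 line after a CRISPR deletion. Polysome-bound and total RNA came from ES cells with 3 libraries each from control cells and from cells in which DDX6, a helicase that P-bodies need, was removed through a degron tag on the endogenous protein. The degron line was also a single-cell clone, expressed GFP-LSM14A and was grown as naive ES cells. The degrader dTAG-13 was given for hours, not days, so the loss of DDX6 was acute. Cycloheximide was added before harvest, and control cells were harvested in the same way.

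Library totals were 6769731 to 31185874 reads in the P-body and cytoplasm table, 15624401 to 17486268 in the Ago2 KO table and 13308782 to 29362195 in the polysome table. Nudt21 stood at 89.1 and 92.2 CPM (reads scaled to a common library total) in the day 3 control cytoplasm and at 5.74 and 4.99 CPM after knockdown. Ago2 stood at 2.57 to 4.52 CPM in the Ago2 KO libraries, whose table holds no other cells here, and the degron acts on the DDX6 protein, so the Ddx6 mRNA checks nothing. The labels give the libraries of a group replicate numbers only, and the study's methods call the replicates of its sequencing assays biological, so the p-values below measure the spread between these libraries. In such fractions, fewer cells in S phase and less histone mRNA per cell cannot be told apart. The Smart-seq kit given for the P-body and cytoplasm libraries primes from poly(A), so values for these mostly non-polyadenylated mRNAs are the reads this priming recovered and not their full amount.

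The stem-loop was found in the annotated transcripts of 44 of the 70 members (62.9%), against 0.219% of the 21877 genes with a protein-coding transcript. The search took a stem of 6 exactly paired bases around a 4-base loop of the known histone form, on the sense strand, in GENCODE M21 transcripts of mm10. Among members, 26 shared 1 form of the stem-loop, 7 another and 6 one more, with 5 members spread over 3 further forms. No match says only that the letters are not in the annotated transcript, since many annotated histone transcripts stop at or close to the stop codon. The sites below show the 3 common forms, with the 16 bases of the stem-loop in capitals.

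H1f2 (Hist1h1c, chr13:23738808-23740367, plus strand): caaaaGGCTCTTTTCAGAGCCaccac
H4c4 (Hist1h4d, chr13:23581598-23582735, plus strand): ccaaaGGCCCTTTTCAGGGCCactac
H3c3 (Hist1h3c, chr13:23744973-23745602, minus strand): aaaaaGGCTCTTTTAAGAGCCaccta

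H1f2 and H4c4 differ from each other within the stem, and H3c3 differs from H1f2 within the loop. In all 3 sites the bases just before the stem are rich in A. In a pair of H2A genes, Hist1h2ao and Hist1h2ap, this stretch is an unbroken run of 12 A that ends where the stem-loop starts. H2ac8 (Hist1h2ae) has a run of 8 A that ends 4 bases before the stem-loop. H2bc4 has a run of 8 A and no stem-loop in its annotated transcript. The windows below show the 4 members with at least 8 A in a row up to the stem-loop, or to the transcript's end where none was found. H3c3 is shown for a shorter run that ends at its stem-loop, and the runs are in capitals.

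Hist1h2ao (chr13:21810465-21810944, plus strand): cccgaaaagAAAAAAAAAAAAggctctttt
Hist1h2ap (chr13:21833026-21833507, minus strand): cccgaaaagAAAAAAAAAAAAggctctttt
H2ac8 (Hist1h2ae, chr13:23570517-23571220, minus strand): tctaatctcgtAAAAAAAAcaaaggctctt
H2bc4 (Hist1h2bc, chr13:23684199-23692908, plus strand): tcatgtaaagcAAAAAAAAtgcgtcatgtt
H3c3 (Hist1h3c, chr13:23744973-23745602, minus strand): ttatgctatttAAAAAAAggctcttttaag

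Up to the stem-loop, or to the transcript's end where none was found, 4 members had a run of at least 8 A and 2 of these a run of 12. A run of at least 12 A was present in the transcripts of 12.6% of all protein-coding genes, where whole transcripts were searched. Past the stem-loop, H2ac6 (Hist1h2ac), H2bc6 (Hist1h2be) and H1f3 (Hist1h1d) held runs of 15, 11 and 8 A. Coding genes are longer: the longest transcript had a median of 532 bases over members and 2882 bases over coding genes. Members also had a median GC content of 58.1%, against 48.7%.

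Hist1h2ao and Hist1h2ap were the most abundant members by their mean over libraries. In the 4 MEF libraries H2bc4 had a higher CPM than either. In the P-body and cytoplasm table the mean levels of the pair were 374 and 373 CPM per kb of transcript, followed by H2ac12 (Hist1h2ah) at 124, H2ac11 (Hist1h2ag) at 104 and H2bc4 at 63.5 CPM per kb. The 4 members with at least 8 A in a row, counted only up to the stem-loop where there was one, had a median of 218 CPM per kb and lay between 34.3 and 374. Both Hist1h2ao and Hist1h2ap, whose reads are shared between them, are among these 4. The other 60 members had a median of 3.68 and lay between 0.219 and 124 CPM per kb. H3c3, H3c8 and H2bc6, with runs of 7 A counted in the same way, stood at 4.89, 2.16 and 0.853 CPM per kb. Among the 60 were H2ac6, H2bc6 and H1f3, whose runs of 15, 11 and 8 A lie past the stem-loop. They stood at 5.07, 0.853 and 0.303 CPM per kb. Their longest annotated transcripts are long for members, at 2482, 2506 and 7425 bases. Before division by length they stood at 12.6, 2.14 and 2.25 CPM and ranked 13, 36 and 35 among members. H2ac12 and H2ac11, which came next after the pair, have no run of A longer than 4 bases in their annotated transcripts. That of H2ac12 holds no stem-loop, so the bases before one could not be searched there. The part of the A run in these levels was not tested. Hist1h2ao was also first in the polysome table, at 463 CPM per kb, where H2ac7 (Hist1h2ad) came second at 144 CPM per kb, and Hist1h2ap was first in the Ago2 KO table at 4668 CPM per kb. The next most abundant members by mean CPM were H2ac10, H2bc4 and H3c3 in the polysome table, at 5.77, 5.19 and 4.58 CPM. In the Ago2 KO table they were Hist1h2ad, Hist1h4d and Hist2h2aa1, at 292, 119 and 69.9 CPM.

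**Figure D1:**
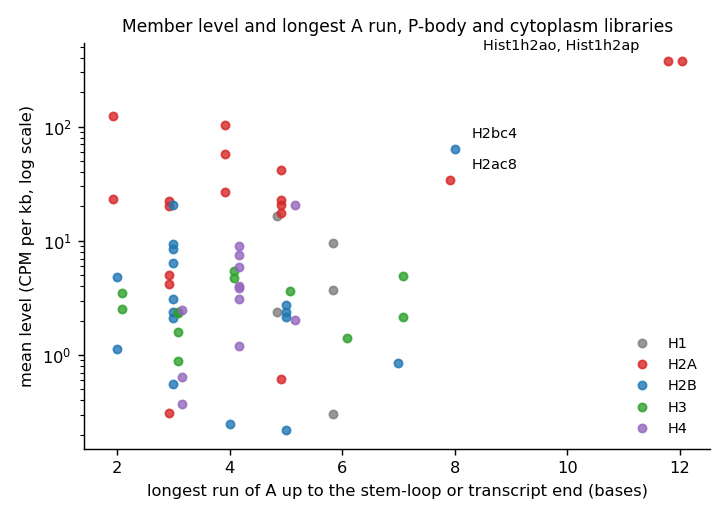
Mean level of each of the 64 members over the 20 P-body and cytoplasm libraries (CPM per kb of the longest annotated transcript, log axis) against the longest run of A up to the stem-loop or the transcript end, in bases. Each point is a member, coloured by histone class and offset slightly sideways by class. Hist1h2ao and Hist1h2ap stand at 374 and 373 CPM per kb with a run of 12 A. H2ac12 reaches 124 CPM per kb without a long run in its annotated transcript, which holds no stem-loop.

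Levels of single members are uncertain, because near-identical copies share reads. Of the values above 0, 82.3% of those of members in the P-body and cytoplasm table were not whole numbers, against 30% over all genes, and in the polysome table the shares were 82.8% and 7.50%. Hist1h2ao and Hist1h2ap received almost the same value in every P-body and cytoplasm library, whereas in the polysome table the reads stood on Hist1h2ao and in the Ago2 KO table mostly on Hist1h2ap. They are therefore best read as 1 quantity, as are Hist1h2bq and Hist1h2br, which have identical annotated transcripts. H2ac18 and H2ac19 also had almost the same values in the P-body and cytoplasm table, as had H3c14 and H3c15. Sums over members do not depend on that division. Counts of members called do depend on it, since copies that share reads are counted below as separate genes. How far this raised the counts, above all those of H2A genes, was not tested.

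The summed level of all members differed between fractions and cell types. In naive ES cells it was 619 and 602 CPM in P-bodies and 637 and 1149 CPM in the cytoplasm. In primed ES cells it was 1357 and 1349 CPM in P-bodies and 1035 and 906 CPM in the cytoplasm. In MEFs it was 1133 and 1183 CPM in P-bodies and 328 and 397 CPM in the cytoplasm. The P-body libraries were thus above the cytoplasm libraries in primed cells and MEFs and below them in naive cells, where the naive cytoplasm libraries lay far apart. The ratio of the group means was 3.20 in MEFs and 1.39 in primed cells, and in naive cells the cytoplasm mean was 1.46 times the P-body mean.

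At day 3 of reprogramming the sum was 797 and 1575 CPM in control P-bodies and 588 and 634 CPM in control cytoplasm. After Nudt21 knockdown it was 687 and 774 CPM in P-bodies and 481 and 744 CPM in the cytoplasm. The control groups did not overlap, although the P-body libraries lay far apart, and the knockdown groups overlapped. In Ago2 KO cells the sum was 5580 and 3818 CPM in P-bodies and 2732 and 1281 CPM in the cytoplasm. These last values come from another annotation and counting tool, and the methods, which give Smart-seq for P-body libraries and a random-primed protocol where stated, do not speak of that table by name, so their height cannot be set against the other cells.

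**Figure D2:**
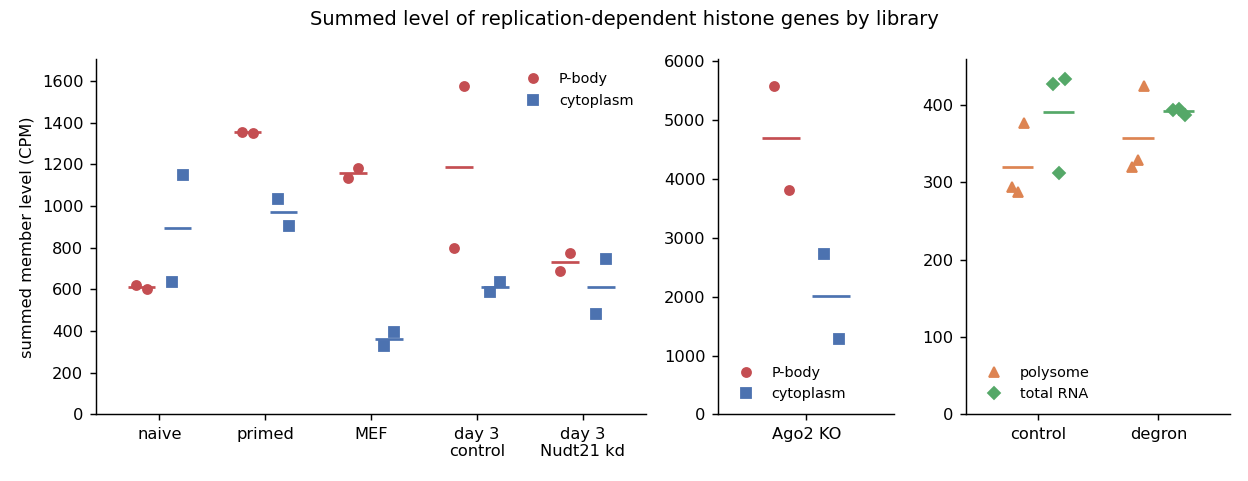
Summed level of the replication-dependent histone genes (CPM on library totals) in each library, with a bar at the group mean; the 3 panels are tables that were counted separately and have their own axes. MEF P-body libraries (1133 and 1183 CPM) lie far above MEF cytoplasm (328 and 397 CPM), and the replicates of naive cytoplasm (637 and 1149 CPM) and day 3 control P-bodies (797 and 1575 CPM) lie apart.

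H2A genes were the largest class in every library, though under 50% of the sum in MEF cytoplasm (41.5% and 46.3%). Their share was 41.5% to 84.5% over the P-body and cytoplasm libraries, 84.3% to 92.1% over the polysome and total RNA libraries and 53.8% to 89.6% over the Ago2 KO libraries. Hist1h2ao and Hist1h2ap alone made up 23.4% to 50.5%, 55.6% to 66.9% and 30.5% to 75.7% in these 3 tables. H3 genes never passed 10.6% and H4 genes never passed 8.92% of the sum in any library. A nucleosome holds the 4 core histones in equal number, so the reads recovered do not follow that proportion.

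MEFs had a different make-up. H2B genes were 31.8% to 36.8% of the sum in MEF cytoplasm, against 6.07% to 7.20% in naive cytoplasm. Most of this was H2bc4, one of the members with a polyadenylated form, at 94.8 and 100 CPM in MEF cytoplasm and at 6.60 and 13.01 CPM in naive cytoplasm. H1f2, which encodes the linker histone H1.2 and also has a polyadenylated form, stood at 38.4 and 45.1 CPM in MEF cytoplasm and at 5.87 and 11.8 CPM in naive cytoplasm. Both stayed high at day 3, with H2bc4 at 80.4 and 82.2 CPM and H1f2 at 33.2 and 32.2 CPM in control cytoplasm. H2bc21 was low throughout, from 0 to 2.09 CPM in the P-body and cytoplasm table.

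**Figure D3:**
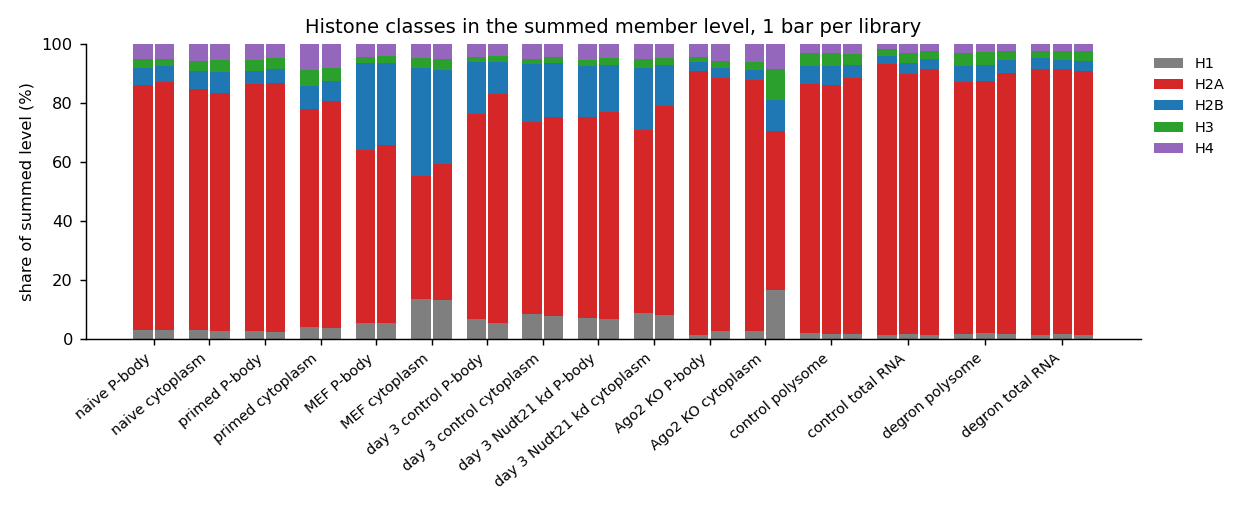
Share of each histone class in the summed member level (%), with 1 stacked bar per library. H2A is the largest class in every bar, from 41.5% in a MEF cytoplasm library upward, H2B has its highest share in MEF cytoplasm (31.8% to 36.8%), and 1 Ago2 KO cytoplasm library has less H2A (53.8%) than the other 3.

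In MEFs, 37 of the 62 members with enough reads to test (59.7%) were higher in P-bodies and none was lower (edgeR quasi-likelihood test, adjusted p under 0.05). Over all 16198 genes tested, 26.6% were called higher and 28.7% lower. The median log2 fold change was 1.51 over members and 0.03 over all genes. By class, 16 of 17 H2A, 11 of 16 H2B, 5 of 12 H4, 3 of 12 H3 and 2 of 5 H1 genes rose, with medians from 0.98 for H3 to 2.07 for H2A.

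Hist1h2ao had 204 and 214 CPM in MEF P-bodies, against 38.4 and 55.4 CPM in MEF cytoplasm, and its log2 fold change was 2.14 ± 0.15 (SE, n = 2 per group, edgeR adjusted p = 7.4e-06). H2bc4 had 268 and 257 CPM in P-bodies, against 94.8 and 100 CPM, and its log2 fold change was 1.41 ± 0.09 (edgeR adjusted p = 4.6e-06). For both genes the fractions were well apart. The largest log2 fold change was that of H2ac10 (Hist1h2af), at 3.07 ± 0.56 (edgeR adjusted p = 0.0013), but this gene was scarce, with 1.69 CPM in each P-body library against 0.149 and 0.247 CPM. H2ac15 (Hist1h2ak) and H4c14 (Hist2h4) followed at 2.43 ± 0.58 and 2.33 ± 0.82, and the H4c14 call was lost in DESeq2 and without P-body replicate 2, cytoplasm replicate 1 or cytoplasm replicate 2. The linker histone genes H1f4 and H1f5 rose by 1.13 ± 0.24 and 1.24 ± 0.25 on the log2 scale (edgeR adjusted p = 0.0031 and 0.0022), and the H1f4 call was lost without cytoplasm replicate 1. H1f2 had 47.3 and 50.8 CPM in P-bodies, against 38.4 and 45.1 CPM, and its log2 fold change of 0.22 ± 0.11 did not pass (edgeR adjusted p = 0.14).

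Other RNAs moved with the MEF fractions. The summed level of 7 nuclear-retained RNAs was 4820 to 6842 CPM in MEF P-bodies and 1019 to 1106 CPM in MEF cytoplasm, and 6 of the 7 were called higher in P-bodies, led by Mirg and Malat1. All 4 lung epithelium markers were called higher too, and their sums were 5.8 CPM in P-body replicate 1 and 87.8 CPM in replicate 2. Of these, Sftpc, Sftpb and Sftpa1 were at 0 in both cytoplasm libraries and Scgb1a1 in 1 of them. Among 4 blood markers 3 were called higher, with sums of 2.3 and 5.5 CPM against 2.1 and 1.5 CPM. The 7 fibroblast markers summed to 14442 to 15043 CPM in P-bodies and 44768 to 48647 CPM in the cytoplasm. The part of these RNAs in the histone result was not tested. Of 20 S-phase genes, 5 were called higher in MEF P-bodies and 10 lower. Leaving out each MEF library in turn left between 28 and 41 members called, all of them higher in P-bodies.

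**Figure D4:**
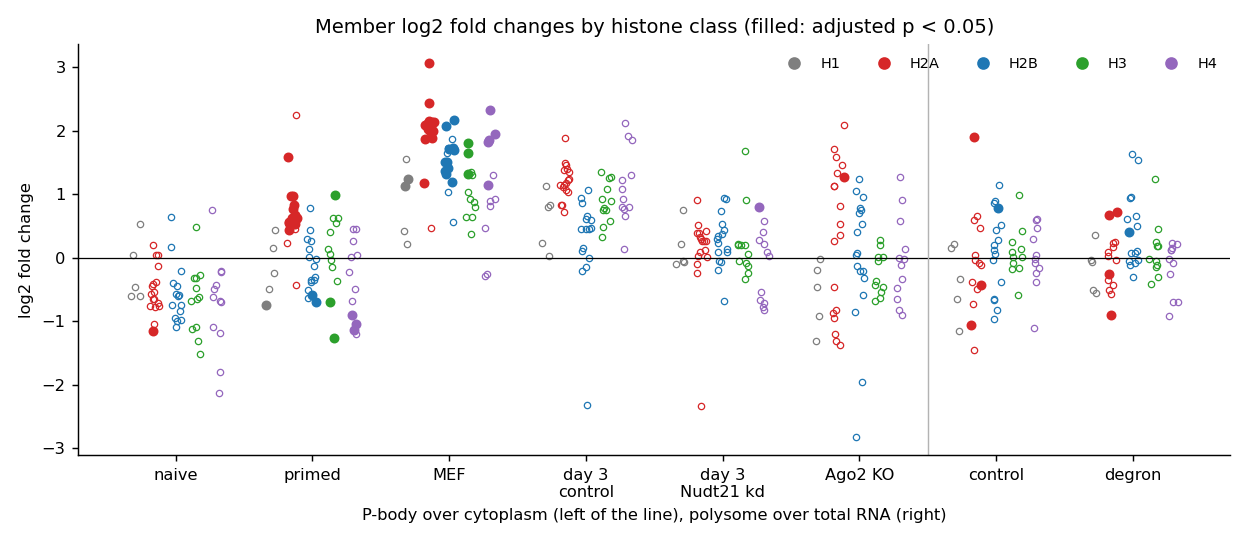
Log2 fold change of every tested member, by histone class, for P-body over cytoplasm in 6 kinds of cells (left of the line) and polysome over total RNA in control and DDX6 degron cells (right). Filled points have an adjusted p under 0.05 in edgeR; 37 of 62 are filled in MEFs, all above 0, and in primed cells 13 of the 14 filled points above 0 are H2A genes.

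In primed ES cells the classes parted. Of 63 members tested, 14 (22.2%) were higher in P-bodies and 8 (12.7%) were lower (edgeR, adjusted p under 0.05), against 26.5% and 24.2% of all 16177 genes. Of the 14, 13 were H2A genes and the other was the H3 gene H3c13 (Hist2h3b). The 8 were 3 H4, 2 H3, 2 H2B genes and the H1 gene H1f5. The median log2 fold change was 0.62 over 18 H2A genes, −0.21 over 16 H2B genes, 0.10 over 12 H3 genes and −0.36 over 12 H4 genes. As shares of a class these counts were high only for H2A, and the members as a whole were called no more often than other genes.

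Among the members called Hist1h2an had the largest rise in primed P-bodies. It had 78.9 and 69.6 CPM there, against 30.01 and 21.1 CPM in primed cytoplasm, and its log2 fold change was 1.59 ± 0.14 (edgeR adjusted p = 9.0e-07). Hist1h2ao had 295 and 297 CPM against 206 and 187 CPM, and its log2 fold change was 0.63 ± 0.06 (edgeR adjusted p = 2.8e-06). H2ac18 and H2ac19 (Hist2h2aa1 and Hist2h2aa2), near-identical genes on chromosome 3, both rose by 0.97 ± 0.20. H3c13 was at 4.49 and 6.24 CPM against 2.76 and 2.74 CPM, and its log2 fold change of 0.99 ± 0.29 was not called by DESeq2 or without P-body replicate 2. The largest falls were those of H3c1 (Hist1h3a), Hist1h4m and Hist1h4n, at −1.26 ± 0.33, −1.13 ± 0.32 and −1.04 ± 0.21, of which only the last passed in DESeq2. Hist1h4n was at 4.87 and 4.89 CPM in P-bodies and 11.9 and 8.88 CPM in the cytoplasm. H1f5 had 6.25 and 4.82 CPM against 11.2 and 7.98 CPM, a fall of −0.74 ± 0.23 on the log2 scale that DESeq2 did not call. H1f2 and H2bc4 did not pass, with log2 fold changes of 0.16 ± 0.19 and 0.43 ± 0.20. By DESeq2 13 members were called, 12 of them higher, and without P-body replicate 2 edgeR called 14, 12 of them higher.

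In naive ES cells, 1 of 61 members (1.64%) was called lower in P-bodies and none higher (edgeR, adjusted p under 0.05), while 22.6% of all 15630 genes were called higher and 15.4% lower. Only 9 of the 61 log2 fold changes were above 0, and the median was −0.60 over members and −0.06 over all genes. The medians of the 5 classes lay between −0.46 and −0.64. The member called was H2ac10, with 10.4 and 8.38 CPM in P-bodies against 20.2 and 28.5 CPM, and its log2 fold change was −1.15 ± 0.23 (edgeR adjusted p = 0.013). Hist1h2ao had 150 and 149 CPM in P-bodies against 123 and 218 CPM, so the fractions overlapped. At an unadjusted p under 0.05 in edgeR there were 7 members, against 7559 of all 15630 genes. DESeq2 called 3 members, all lower.

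The naive counts changed with single libraries. Without cytoplasm replicate 1, 40 of 60 members were called, all lower in P-bodies, while 4985 of all 15184 genes were called higher and 4561 lower. Without cytoplasm replicate 2, 11 were called, 5 higher and 6 lower, with 5171 of all 15167 genes higher and 4847 lower, and the median was −0.04. Without P-body replicate 2, none was called, and the call of H2ac10 was also lost without P-body replicate 1. Hist1h2ao and Hist1h2ap were called lower in P-bodies without cytoplasm replicate 1, at −0.29 on the log2 scale, and higher without cytoplasm replicate 2, at 0.47.

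The enrichment itself differed between naive and primed cells for 9 of 64 members (14.1%), all more P-body enriched in primed cells, and for none in the other direction (edgeR interaction test). Over all 17199 genes, 11.4% were called in that direction and 13.9% in the other. The share of members called was thus close to that of all genes in the same direction. All 9 were H2A genes, out of 18 tested, and the median difference was −1.35 on the log2 scale over H2A genes and −0.78 over all members, against −0.04 over all genes. Other RNAs moved with these fractions. The nuclear-retained RNAs summed to 539 to 562 CPM in naive P-bodies and 209 to 283 CPM in naive cytoplasm, but to 670 to 721 CPM in primed P-bodies and 903 to 1129 CPM in primed cytoplasm, and of the 7, 3 were called more enriched in naive cells and 1 in primed cells. The fibroblast markers summed to 1591 to 1672 CPM in naive P-bodies against 4240 to 4267 CPM in naive cytoplasm, and to 256 to 273 CPM against 667 to 682 CPM in primed cells, and 2 of 6 were called more enriched in naive cells. The part of these RNAs in the difference was not tested.

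H2ac10 showed the clearest difference. Its P-body over cytoplasm log2 fold change was −1.15 ± 0.23 in naive and 0.83 ± 0.13 in primed cells, a difference of −2.13 ± 0.26 in the fit over both (edgeR adjusted p = 7.8e-04). It had 26.1 and 25.8 CPM in primed P-bodies against 14.9 and 14.8 CPM in primed cytoplasm, and in naive cells the order of the fractions was the opposite. Among the members called Hist1h2an had the largest difference, −2.48 ± 0.55 (edgeR adjusted p = 0.011), with naive values of 16.8 and 17.9 CPM in P-bodies against 17.6 and 51.3 CPM, and this call was lost when either naive P-body library, primed P-body replicate 1 or primed cytoplasm replicate 2 was left out. H2ac7 followed at −1.67 ± 0.33 (edgeR adjusted p = 0.0070). For Hist1h2ao the difference of −0.73 ± 0.28 did not pass (edgeR adjusted p = 0.087). Without naive cytoplasm replicate 1, 30 members were called, without replicate 2 there were 10, and without any 1 of the 4 P-body libraries or the 2 primed cytoplasm libraries, 3 to 5 were called, all in the same direction.

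**Figure D5:**
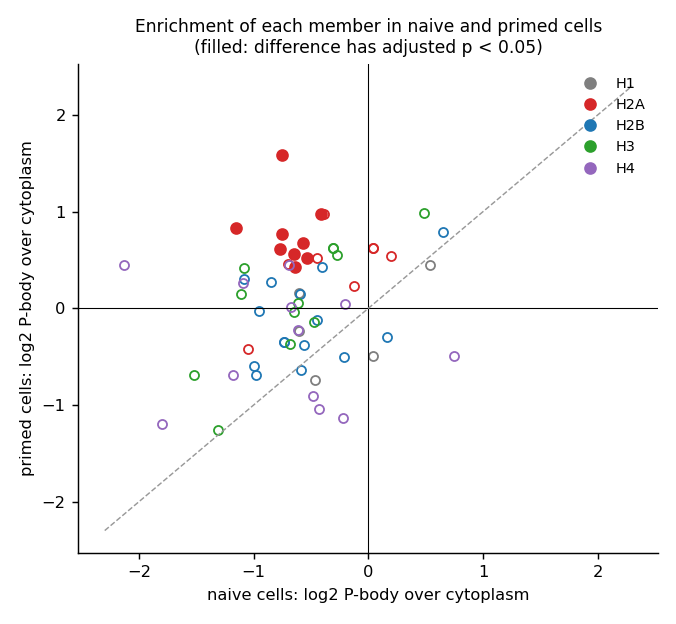
Log2 fold change of P-body over cytoplasm for each member in naive (horizontal) and primed (vertical) ES cells, coloured by class; the dashed line marks equal values and filled points are the 9 members whose enrichment differed by the interaction test (adjusted p under 0.05). All filled points are H2A genes that lie above the dashed line, left of 0 and above 0 on the vertical axis.

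Few members were called between naive and primed cytoplasm. Of 62 members, 1 (1.61%) was called higher in naive cells and 4 (6.45%) lower, against 22.1% and 21.6% of all 16125 genes. H2ac10 was the member called higher, at 20.2 and 28.5 CPM against 14.9 and 14.8 CPM. Hist1h4n, H2bc6 (Hist1h2be), Hist1h4m and H1f4 were lower, with log2 fold changes from −1.33 to −1.65. Each of these 5 calls was lost when either primed cytoplasm library was left out. With naive cytoplasm replicate 1 left out, 12 members were called higher and 5 lower with a median of 0.31, and with replicate 2 left out, 1 was called higher and 20 lower with a median of −0.69, so the direction of the members as a whole depended on the library.

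At day 3 of reprogramming, no member of 62 was called in control cells (edgeR, adjusted p under 0.05), where only 0.196% of all 15786 genes were called higher in P-bodies and 0.45% lower. Of the 62, 58 had a log2 fold change above 0, with a median of 0.85 over members and −0.01 over all genes. At an unadjusted p under 0.05 in edgeR there were 19 members, against 3899 of all 15786 genes. DESeq2 called 13 members, all higher in P-bodies. Hist1h2ao had 181 and 398 CPM in P-bodies against 129 and 138 CPM, and its log2 fold change was 1.14 ± 0.35 (edgeR adjusted p = 0.13). H2bc4 had 103 and 118 CPM against 80.4 and 82.2 CPM, and its log2 fold change was 0.46 ± 0.13 (edgeR adjusted p = 0.12). Without P-body replicate 1, 40 members were called, 39 of them higher, while 4085 of all 15347 genes were called higher and 4667 lower. Without P-body replicate 2, 9 members were called, 8 of them higher, with 2301 of all 15400 genes higher and 2595 lower, and the median over members was 0.29. Leaving out cytoplasm replicate 1 or 2 gave 3 and 4 calls.

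After Nudt21 knockdown, 1 of 62 members (1.61%) was called higher in P-bodies and none lower, against 9.04% and 12.8% of all 15995 genes. It was H4c8 (Hist1h4h), with 4.35 and 5.32 CPM against 2.36 and 3.24 CPM, and its log2 fold change of 0.81 ± 0.25 (edgeR adjusted p = 0.044) was not called by DESeq2. The median was 0.20 over members. Leaving out each library in turn gave 0 to 7 calls, with 7 without P-body replicate 1, 4 without P-body replicate 2, none without cytoplasm replicate 1 and 3 without cytoplasm replicate 2. The difference in enrichment between knockdown and control had a median of −0.59 over members and 0.03 over all genes, with no member called in edgeR or in DESeq2 and 1 at an unadjusted p under 0.05. Over all 16973 genes, 0% were called higher and 0.0118% lower in that test. Leaving out each library in turn, the median difference over members ran from −0.97 to −0.03, the latter without control P-body replicate 2.

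In the cytoplasm, Nudt21 knockdown left the sum of members at 481 and 744 CPM, against 588 and 634 CPM in the control. Of 62 members, 4 (6.45%) were called higher and 3 (4.84%) lower, against 24.6% and 25% of all 15990 genes. The 3 that fell were H2B genes and included H2bc4 and H2bc21, which have polyadenylated forms. The cells differed in their markers too: 6 of 7 fibroblast markers were called lower after knockdown, with sums of 4209 to 4349 CPM against 10508 to 10661 CPM. Of 6 pluripotent markers 5 were called higher and 1 lower, with sums of 1267 to 1489 CPM against 628 to 631 CPM. The pluripotent list includes Pou5f1 (Oct4), Sox2 and Klf4, which the induced cassette also expresses, so its sum is not a measure of the cells' own genes alone. The blood markers summed to 102 to 105 CPM after knockdown against 11.4 to 14.9 CPM, where the 1 marker tested was called higher. Their part in the histone values was not tested. H2bc4 was at 68.4 and 69.3 CPM after knockdown and 80.4 and 82.2 CPM in the control, a log2 fold change of −0.26 ± 0.07 (edgeR adjusted p = 0.0085). H2bc21 and H2bc6 changed by −1.07 ± 0.41 and −0.87 ± 0.34. The 4 that rose, H4c11 (Hist1h4j), H4c14, H2bc14 (Hist1h2bm) and H1f1, had at most 1.47 CPM in any of these libraries, and their log2 fold changes were 1.43 to 3.06. DESeq2 called only H2bc14 and H2bc4. Leaving out each library gave 5 to 13 calls, with 11 higher and 2 lower without knockdown replicate 1 and 1 higher and 11 lower without knockdown replicate 2. Hist1h2ao was called higher without knockdown replicate 1 and lower without knockdown replicate 2, so its direction depended on the library. H1f2 did not differ detectably, with a log2 fold change of 0.00 ± 0.12.

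In Ago2 KO cells, 1 of 65 members tested (1.54%) was called higher in P-bodies and none lower, against 5.47% and 1.05% of all 16808 genes. It was Hist2h2ac, with 30.8 and 18.4 CPM against 11.9 and 8.23 CPM, and its log2 fold change of 1.27 ± 0.31 (edgeR adjusted p = 0.046) was not called with DESeq2 size factors, without P-body replicate 1 or without cytoplasm replicate 2. Hist1h2ap had 4125 and 2612 CPM in P-bodies against 1887 and 377 CPM, and its log2 fold change was 1.59 ± 0.61 (edgeR adjusted p = 0.15). The cytoplasm libraries differed in make-up: H1 genes were 2.64% of the sum in replicate 1 and 16.6% in replicate 2, where Hist1h1d stood at 76.2 CPM, against 18.5 CPM in replicate 1 and 16.998 and 23.2 CPM in P-bodies. Without cytoplasm replicate 1, 31 of 64 members were called, 8 higher and 23 lower, while 2734 of all 16250 genes were called higher and 2883 lower. Without cytoplasm replicate 2, 5 members were called, all higher, with 1623 of all 16182 genes higher and 511 lower. Without P-body replicate 1 none was called, without P-body replicate 2 there were 3, and DESeq2 called 4. The median over members was −0.01, −0.55 without replicate 1 and 0.51 without replicate 2. Of the members seen only in this table, Hist3h2a was at 2.70 to 6.15 CPM, Hist4h4 at 1.52 to 5.32 CPM, Hist3h2ba at 0.172 to 0.557 CPM Hist3h2bb-ps at 0 to 0.248 CPM and Hist1h1t, the testis linker histone, at 0 to 0.0640 CPM, while Hist1h2aj was listed at 0 in each library.

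By group means, the summed level of members in polysomes was 0.816 times that in total RNA in control cells. In degron cells it was 0.912 times. The sum was 293, 288 and 376 CPM in control polysomes and 427, 312 and 434 CPM in control total RNA. In DDX6 degron cells it was 319, 328 and 424 CPM in polysomes and 393, 395 and 387 CPM in total RNA. The groups overlapped in both kinds of cells. The median log2 fold change over 57 members tested was 0.01 in control and 0.02 in degron cells. This median counts each member alike, whereas Hist1h2ao and Hist1h2ap made up 55.6% to 66.9% of the sum in these libraries.

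In control cells 2 members (3.51%) were called higher in polysomes and 2 (3.51%) lower, against 18.8% and 24.1% of all 15411 genes. In degron cells 3 (5.26%) were higher and 2 (3.51%) lower, against 24% and 26.8% of all 15638 genes. Without degron polysome replicate 1 or degron total replicate 2, 2 members were called in degron cells. H2ac7 had 49.9, 58.5 and 75.2 CPM in control polysomes against 138, 77.8 and 123 CPM in control total RNA, and its log2 fold change was −1.05 ± 0.17 (edgeR adjusted p = 9.4e-05). In degron cells it had 58.8, 45.4 and 73.9 CPM against 109, 97.0 and 82.5 CPM, and its log2 fold change was −0.89 ± 0.11 (edgeR adjusted p = 4.7e-07). The polysome libraries lay below the total RNA libraries in both. Hist1h2ao was at 175, 160 and 234 CPM in control polysomes and 242, 188 and 253 CPM in control total RNA, where the groups overlapped, and its log2 fold changes of −0.43 ± 0.13 in control and −0.25 ± 0.08 in degron cells were not called by DESeq2.

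H2bc4 was higher in polysomes, at 6.62, 6.51 and 5.56 CPM against 2.92, 2.78 and 4.05 CPM in control cells. Its log2 fold change was 0.78 ± 0.17 in control and 0.40 ± 0.14 in degron cells (edgeR adjusted p = 0.0011 and 0.019). H2ac10 had log2 fold changes of 1.90 ± 0.37 and 0.67 ± 0.26, with degron groups that overlapped and a degron call that was lost in DESeq2. H2ac8 was the other member called in degron cells, at 0.71 ± 0.29, and was not called by DESeq2 or when any 1 of 5 of the 6 libraries was left out. H1f2 had 0.15 ± 0.22 and 0.36 ± 0.20, which did not pass. The other H1 genes were scarce in these libraries, with H1f5 between 0.111 and 0.702 CPM, and none of them passed.

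Acute DDX6 removal left no member called. In total RNA 0 of 57 members passed in edgeR and in DESeq2, 5 had an unadjusted p under 0.05, and 1.24% of all 15380 genes were called higher and 2.07% lower. Without control total replicate 3, 4 members were called, 3 of them higher. Hist1h2ao was at 235, 241 and 246 CPM in degron and at 242, 188 and 253 CPM in control total RNA, a log2 fold change of 0.08 ± 0.09. For the change in polysome occupancy no member passed in edgeR or DESeq2, 1 had an unadjusted p under 0.05, and 0% of all 16345 genes were called in either direction by edgeR. The change of H2bc4 was −0.39 ± 0.22 and that of Hist1h2ao 0.18 ± 0.18.

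Histone genes outside the rule gave a comparison. The 11 variants outside the clusters, most of which are expressed outside S phase from polyadenylated mRNAs, had 8 members higher and 2 lower in MEF P-bodies, led by H2aj at 1.76 ± 0.11 and H2az2 at 1.46 ± 0.10. In primed cells 6 were higher and 1 lower, and in naive cells none was higher and 4 were lower, led by H2ax at −1.10 ± 0.14. H2ax is 1 of the 4 genes outside the rule whose transcripts held the stem-loop. The variants thus had the same direction of medians as the replication-dependent genes in these 3 cells: 0.85 in MEFs, 0.27 in primed and −0.48 in naive cells. The naive and primed enrichment differed for 7 of the 11, all more P-body enriched in primed cells, against 11.4% of all 17199 genes in that direction. In polysomes of control cells 7 of the 11 were higher and none lower, with H2az2, H3f3a and H2az1 between 0.45 and 0.50. Over all genes, 22.6% were called higher and 15.4% lower in naive, 26.5% and 24.2% in primed and 26.6% and 28.7% in MEF P-bodies. The shares were 18.8% and 24.1% in control polysomes.

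The genes of 20 factors that make or degrade histone mRNA had medians of 0.20 in naive, 0.10 in primed and −0.34 in MEF P-bodies. That direction was opposite to the members' median in naive cells and MEFs and the same in primed cells. The counts below stand beside the same shares of all genes as those of the variants. In naive P-bodies 9 were higher and 3 lower, led by Casp8ap2 (FLASH, a processing factor at histone loci) at 3.65 ± 0.37 and Npat, the coactivator of histone transcription, at 3.58 ± 0.34, and Slbp was at 0.88 ± 0.10. Sympk and Upf1 fell by 0.68 and 0.79 on the log2 scale. In primed P-bodies Npat and Casp8ap2 again led the 7 that were higher, at 1.70 ± 0.06 and 1.30 ± 0.05, and Upf1 was lowest of the 3 that were lower. In MEF P-bodies 4 were higher, led by Lsm10 at 0.83 ± 0.12 and Lsm1 at 0.65 ± 0.11, and 12 lower, led by Upf1 at −1.43 ± 0.09 and Tut7 at −1.06 ± 0.12, with Npat at −0.71 ± 0.12. In control polysomes 5 were higher and 12 lower, with Upf1 and Cpsf3 lowest at −1.93 ± 0.07 and −1.52 ± 0.06.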

How the data were processed

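Estimated counts per refGene gene, in part fractions of reads, were deposited for sorted P-bodies and cytoplasm, where the authors used Smart-seq, alignment to mm10 by hisat2 and featureCounts. For the polysome and total RNA libraries (a directional NEB kit) and for the Ago2 KO libraries the deposited expected counts came from salmon; whether poly(A) RNA was selected for the former is not given in the sources used here, and the kit of the Ago2 KO table is given only by the study's general statement on P-body libraries. Further tables held the authors' own fold changes and p-values and were not used. Per the labels, HISAT2, featureCounts and DESeq2 were used.

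Counts were rounded. Each of 14 comparisons used only its own groups and the two-sided test of edgeR by quasi-likelihood (version 4.0.16, R version 4.3.3) with TMM scaling and no covariate, on genes whose reads in the libraries compared summed to 10 or more, with Benjamini-Hochberg adjustment over all genes tested. The SE was derived from the F statistic. Values of single libraries are CPM on the library total. Enrichment between cell types was compared by an interaction contrast. The test was checked on data simulated with the same spread in every library, a setting that does not match the uneven replicates here. Of 24 pairs of libraries of 1 group, none agreed within sampling noise (chi-square per degree of freedom at least 1.82).

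The members, the gene lists and the alternatives were chosen with earlier results of these data known. Members named were 11 set genes, up to 3 called members a direction and comparison, by size of log2 fold change, and the 5 most abundant of each table; Hist1h2an, H2ac7, H2ac8 and Hist1h2ao are also named elsewhere, chosen after their values were seen. From the other lists the 2 called genes with the largest change in each direction are named, with Slbp, Npat and H2az1 chosen after seeing their values. Alternatives were DESeq2 (version 1.42.0), its size factors, filterByExpr, no filter, fractions cut down to whole reads, leaving out each library and the replicate number as a block. No batch or date was given in the labels. Sites were searched in GENCODE M21 transcripts (mm10, positions counted from 1).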

Additional observations from a re-analysis of the deposited data

Results flagged for a closer look

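The P-body enrichment of 9 of 64 members (14.1%) differed between naive and primed ES cells by the interaction test of edgeR (adjusted p under 0.05), with primed cells higher in each. Over all 17199 genes, 11.4% were called in that direction and 13.9% in the other. The log2 differences, naive minus primed, were −2.48 for Hist1h2an, −2.13 for H2ac10, −1.67 for H2ac7, −1.54 for H2ac4, −1.52 for H2ac18, −1.38 for H2ac12, −1.35 for H2ac11, −1.21 for H2ac6 and −1.20 for H2ac8. DESeq2 called 8 of these 9. The share of members called by edgeR was close to that of all genes in the same direction. The naive cytoplasm libraries had sums of members of 637 and 1149 CPM, and the part of this spread in the differences was not tested.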

How the results depend on the processing

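With DESeq2 the number of members called moved to 3 in naive, 13 in primed, 13 in day 3 control, 0 in Nudt21 knockdown and 4 in Ago2 KO P-bodies, to 2 for degron polysomes, to 3 for naive against primed cytoplasm and to 2 for Nudt21 knockdown against control cytoplasm. With no filter it was 12 in day 3 control, 5 in knockdown and 14 in Ago2 KO P-bodies, 1 for degron against control total RNA and 4 for the change of enrichment on knockdown. With DESeq2 size factors Ago2 KO P-bodies had 0, and with filterByExpr the median for degron against control total RNA was 0.078. Without H1f2, H2bc4 and H2bc21 the log2 ratio of the summed MEF level was 1.93 in place of 1.68, and with TMM-scaled library sizes that of degron polysomes was −0.31 in place of −0.13. For single members named, DESeq2 removed 17 calls and added 7, and no member called with all libraries turned direction under any alternative run. The causes were not tested.

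Leaving out 1 library at a time gave these ranges. The members called were 0 to 40 in naive, 14 to 25 in primed, 28 to 41 in MEF, 3 to 40 in day 3 control, 0 to 7 in knockdown and 0 to 31 in Ago2 KO P-bodies. They were 3 to 6 for control polysomes, 2 to 6 for degron polysomes, 0 to 4 for degron against control total RNA and 0 to 0 for occupancy, 0 to 21 for naive against primed cytoplasm, 3 to 30 for naive against primed enrichment, 5 to 13 for knockdown cytoplasm and 0 to 17 for knockdown enrichment. The medians ran from −0.90 to −0.037, −0.035 to 0.33, 1.39 to 1.604, 0.29 to 1.35, 0.028 to 0.40, −0.55 to 0.51, −0.080 to 0.16, −0.039 to 0.12, −0.044 to 0.12, −0.11 to 0.21, −0.69 to 0.31, −1.07 to −0.30, −0.20 to 0.34 and −0.97 to −0.033 in the same order. The primed median turned to −0.035 without cytoplasm replicate 2, and the occupancy median was below 0 without any of 9 libraries, at −0.063, −0.065, −0.012, −0.053, −0.041, −0.11, −0.011, −0.041 and −0.022. Some members that did not pass with all libraries were called in opposite directions by which library was left out. Hist1h2ao and Hist1h2ap had −0.29 for naive P-bodies and 0.31 for naive against primed cytoplasm without naive cytoplasm replicate 1, and 0.47 and −0.45 without replicate 2. In knockdown cytoplasm, without knockdown replicate 1 or 2, both had 0.32 or −0.45, H2ac11 had 0.66 or −0.42 and H2ac12 had 0.72 or −0.52.

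The replicate numbers of fractions are not said to pair preparations. Deviations of same-numbered libraries correlated at −0.06 in naive, 0.08 in primed, −0.01 in MEF, 0.17 in day 3 control, 0.20 in knockdown and 0.58 in Ago2 KO cells, and between 0.00 and 0.24 in the polysome comparisons. With the replicate block the members called were 3 in naive, 4 in day 3 control, 4 in knockdown and 15 in Ago2 KO P-bodies, 11 of the last higher and 4 lower, and the other comparisons stayed within 1.5 times of the count without the block. Near-identical copies and non-polyadenylated mRNA limit the values of single members, and 2 libraries a fraction limit the P-body counts.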
